A study of Homo sapiens with 54 samples.

Results

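PEO23 and PEO14 are cell lines of high-grade serous ovarian cancer that form 1 of the 3 intra-patient pairs of the series, and their transcriptomes under carboplatin are compared here. PEO23 is labelled platinum resistant and PEO14 platinum sensitive. The 4 groups were PEO23 after 8 h and after 24 h in 80 µM carboplatin and PEO14 after 8 h and after 24 h in the same dose, with 3 libraries each, so the comparison used 12 of the 54 libraries of the series. The dose unit is that of the sample labels, while the series' own text gives it in mM. All 12 libraries carried the drug. The other pairs, set beside this one further below, are PEO4 (labelled resistant) with PEO1 (sensitive) and PEA2 (resistant) with PEA1 (sensitive). Their treated libraries had the same dose and times. Untreated PEO23 was not used, since its 3 libraries list 11151, 2678 and 2985 genes above 0, and a difference present before the drug therefore cannot be told apart from one that arose under it. Each clinical state is represented by 1 line. Within a line, libraries that share a number share a passage label across the 2 times, so 6 libraries may stand for 3 cultures, and p-values measure the spread between these libraries. Values of untreated PEO14 are deposited TPM of 3 libraries and were not rescaled with the treated ones.

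Carboplatin forms platinum adducts on DNA, mainly crosslinks within a strand, which stall replication forks. Cells can limit its uptake, bind it with thiols and metallothioneins, excise the adduct (nucleotide excision repair) or repair crosslinked forks (Fanconi anaemia proteins and homologous recombination), and the p53 and BCL2 programmes set whether a damaged cell dies. High-grade serous carcinoma is thought to arise mostly from the secretory epithelium of the fallopian tube, and it commonly expresses PAX8 and keratins.

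The deposited unit is TPM (a level per transcript length, with the same sum in every library). It was rescaled between libraries and tested as log2(rescaled TPM + 1), the scale of every log2 difference given, which understates the change of low genes. A gene was called, and is said to have risen or fallen in PEO23, at a limma adjusted p under 0.05 (Benjamini-Hochberg over all genes tested, two-sided). PEO14 24 h libraries 2 and 3 list 6058 and 8748 genes above 0 TPM, against 13812 to 16543 in the 6 PEO23 libraries and 14344 to 15492 in the other 4 of PEO14. Results are therefore given with all 12 libraries (the 12-library fit) and with the 10 that list at least 12000 genes (the 10-library fit), in which PEO14 at 24 h is 1 library, assumed to vary like the other groups. Means of PEO14 are over the 4 libraries of the 10-library fit, and the other 2 are called the sparse libraries. RMRP and RPPH1, the RNA components of the ribonucleases MRP and P, took 15.6% to 45.6% of the TPM sum in PEO23 and 5.40% to 38.3% in PEO14, and their part in the results was not tested beyond the scaling alternatives. Read depth is unknown, since the table holds no counts.

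Of 11 markers of serous epithelium, all exceeded 1 rescaled TPM in at least 1 of the 10 libraries, with a summed level of 2706 to 4182 in PEO23 and 4141 to 8345 in PEO14, and WT1 was low, at up to 2.11 in PEO23 and 0.687 in PEO14. Of 10 fibroblast markers, 3 exceeded 1 (summed level 1.85 to 5.89 in PEO23 and 10.2 to 19.6 in PEO14, with COL3A1, POSTN, FAP and THY1 listed at 0). Of 10 leukocyte markers and 9 endothelial markers, 4 each exceeded 1, with CD3E, MS4A1, CD163, EMCN and ROBO4 listed at 0. The leukocyte sum was 2.60 to 8.41 in PEO23 and 3.62 to 5.69 in PEO14, and the endothelial sum was 0.579 to 6.83 in PEO23 and 3.03 to 8.29 in PEO14.

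**Figure D1:**
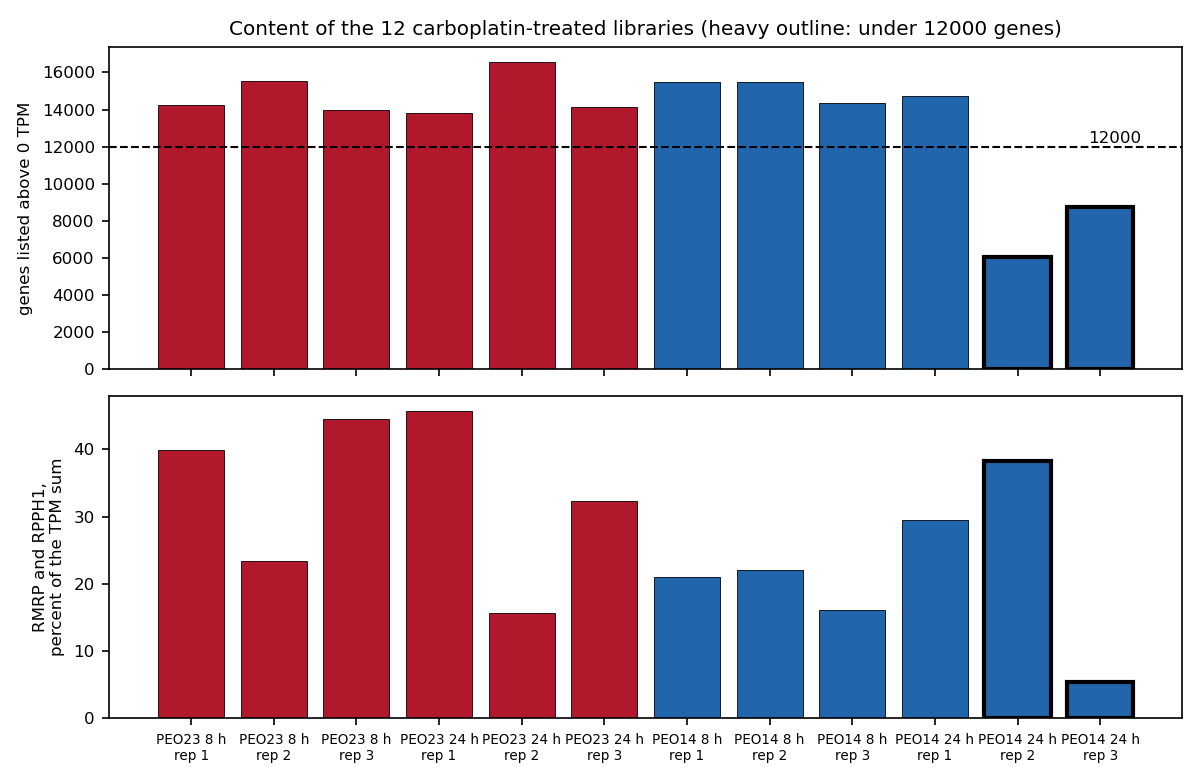
Genes listed above 0 TPM (upper panel, number of genes) and the share of the TPM sum in RMRP and RPPH1 (lower panel, percent) in each library, 1 bar per library, with PEO23 in red and PEO14 in blue. PEO14 24 h replicates 2 and 3 (heavy outline, 6058 and 8748 genes) lie under the dashed line at 12000.

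With the times pooled and time as a term, 549 genes (3.94% of 13949) were higher and 149 (1.07%) lower in PEO23 in the 12-library fit. In the 10-library fit 729 genes (5.29% of 13785) were higher and 871 (6.32%) lower. The median log2 difference of all genes was 0.36 in the 12-library fit and close to 0 in the 10-library fit, so the balance of calls moved with the sparse libraries. Both fits called 457 genes higher (3.32%) and 148 lower (1.07%). Without rescaling, the 10-library fit had a median difference of -0.36 and called 257 genes higher and 663 lower, and in the 12-library fit 189 of 293 calls were higher, so a gene's difference is relative to the scaling.

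The largest higher values in PEO23 belonged to CRIP1, the calprotectin subunits S100A8 and S100A9, and RHOD. CRIP1, a small LIM-domain protein, had 1239.6, 446 and 1302 rescaled TPM at 8 h and 1697, 370.2 and 730.0 at 24 h in PEO23, against 0.819, 0 and 2.15 at 8 h and 2.80, 0 and 0 at 24 h in PEO14. The lines did not overlap, and the log2 difference was 8.45 ± 0.54 (SE) in the 10-library fit (limma adjusted p = 1.63e-06) and 8.96 ± 0.52 in the 12-library fit. Untreated PEO14 listed CRIP1 at 8.58, 14.64 and 3.6 deposited TPM. S100A9, which with S100A8 forms a calcium-binding heterodimer abundant in neutrophils and inflamed epithelia, had 1489.8, 3783 and 8901 as its lowest, median and highest value in PEO23, against 14.8, 52.6 and 30.5 at 8 h and 22.1, 165 and 0 at 24 h in PEO14. Every PEO23 value exceeded every PEO14 value, with a log2 difference of 7.07 ± 0.48 (10 libraries, limma adjusted p = 2.13e-06). S100A8 had 158, 331 and 534 as its lowest, median and highest value in PEO23 and was listed at 0 in all 6 treated and all 3 untreated PEO14 libraries.

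RHOD, which acts in actin and endosome movement, had 62.7 to 164 rescaled TPM in PEO23 and was listed at 0 in all 6 PEO14 libraries. COX7B2, a relative of a cytochrome c oxidase subunit, had 7.94 to 57.5 in PEO23 and was listed at 0 in PEO14. MYL9, a regulatory light chain of myosin, had 33.9 to 82.1 in PEO23 and was listed at 0 in treated PEO14, while untreated PEO14 had 7.90, 3.87 and 0 deposited TPM. All 3 genes were above 0 in every PEO23 library and at 0 in every treated PEO14 library.

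PI3 (elafin), an inhibitor of neutrophil elastase, had 111, 170.0 and 355 rescaled TPM as its lowest, median and highest value in PEO23, against 8.13, 7.63, 14.3 and 5.80 in the 4 PEO14 libraries (log2 difference 4.28 ± 0.28). SMIM22, a small membrane protein, averaged 122 ± 60.8 rescaled TPM in PEO23 (SD, n = 6) and 0.689 ± 0.841 in PEO14 (SD, n = 4). CLDN3, a tight-junction claudin, averaged 184 ± 74.8 rescaled TPM in PEO23 (SD, n = 6) and 2.66 ± 1.09 in PEO14 (SD, n = 4), with a log2 difference of 5.61 ± 0.39 (10 libraries, limma adjusted p = 2.46e-06). Untreated PEO14 listed CLDN3 at 89.6, 75.2 and 81.1 deposited TPM.

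**Figure D2:**
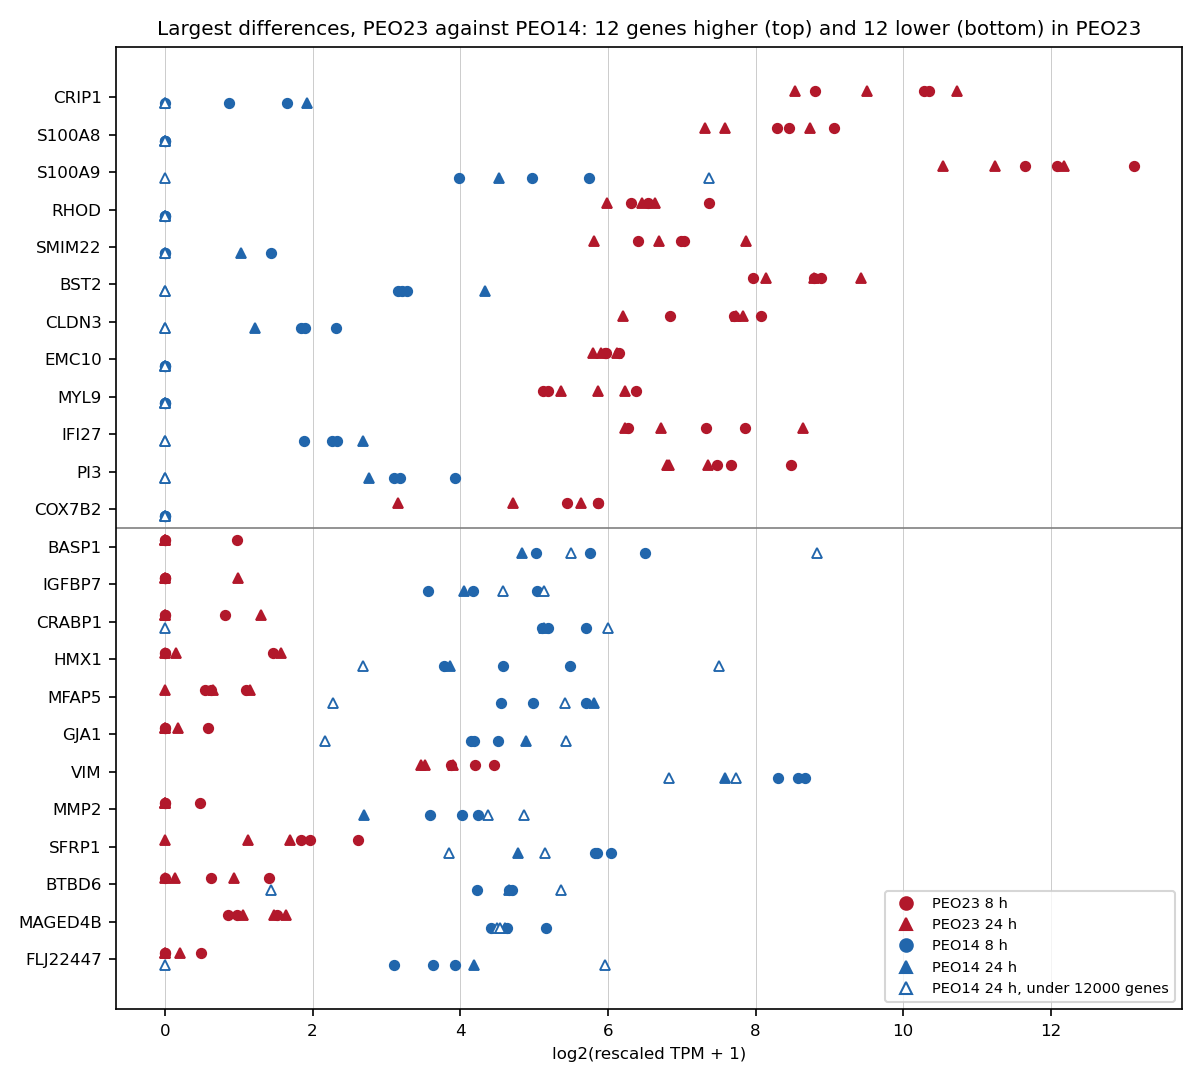
Each point is 1 library, placed by log2(rescaled TPM + 1), for the 12 genes with the largest higher and the 12 with the largest lower difference among genes called in both fits. PEO23 (red) lies right of PEO14 (blue) in the upper block, and in the lower block it lies left of the 4 filled PEO14 points, while the open triangles are the sparse libraries.

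EMC10, a subunit of the endoplasmic reticulum membrane protein complex, had the lowest ratio of SD to mean in PEO23 among these 24 genes. It had 70.0, 61.6 and 61.5 rescaled TPM at 8 h and 58.8, 54.9 and 68.6 at 24 h in PEO23, and was listed at 0 in all 6 treated and all 3 untreated PEO14 libraries. FAM71E1, the gene beside it, which was chosen after its values were seen, had 23.6, 11.4 and 32.3 at 8 h and 42.7, 15.1 and 36.8 at 24 h in PEO23 and was listed at 0 in the same PEO14 libraries. Both genes were above 0 in all PEO23 libraries and at 0 in all PEO14 libraries. By gene annotation they lie on opposite strands of chromosome 19, and in RefSeq (GRCh38.p14) they share 342 bases. In these bases, reads could be told apart only if strand was counted, which is not stated. The window from 250 bases before to 50 bases after the start of EMC10 lies beside both starts and is shown for that reason. It holds 29 CpG dinucleotides, against a median of 14.0 over 35116 such windows.
EMC10 (chr19:50476257-50476556, plus strand): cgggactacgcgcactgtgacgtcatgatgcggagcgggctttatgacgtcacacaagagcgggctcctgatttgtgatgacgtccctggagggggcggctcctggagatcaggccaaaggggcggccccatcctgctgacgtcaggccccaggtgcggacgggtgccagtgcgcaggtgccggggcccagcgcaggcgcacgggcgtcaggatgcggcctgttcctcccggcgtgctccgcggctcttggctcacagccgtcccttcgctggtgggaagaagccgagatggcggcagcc

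The largest lower values in PEO23 included genes of the cytoskeleton, the matrix and cell contacts. VIM, the intermediate filament vimentin, had 13.7, 17.3 and 20.9 rescaled TPM at 8 h and 14, 10.5 and 10.1 at 24 h in PEO23, against 408, 315 and 381 at 8 h and 191, 113 and 212 at 24 h in PEO14. The lines did not overlap in any library, and the log2 difference was -4.33 ± 0.24 in the 10-library fit (limma adjusted p = 6.06e-07) and -4.05 ± 0.32 in the 12-library fit. MMP2, a gelatinase that cuts basement-membrane collagen, was above 0 in 1 PEO23 library (0.387) and had 5.50 to 28.2 in the 6 PEO14 libraries. GJA1, the gap-junction protein connexin 43, had at most 0.497 in PEO23, against 16.7 to 28.7 in the 4 PEO14 libraries. MFAP5, a microfibril protein, had 0 to 1.23 in PEO23, against 22.4 to 55.1 in those 4. All 4 genes were close to 0 or far below PEO14 in every PEO23 library.

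IGFBP7, a secreted binder of insulin-like growth factors, was listed at 0 in 5 of 6 PEO23 libraries (highest 0.994) and had at least 10.8 rescaled TPM in PEO14. BASP1, a membrane-bound signalling protein, was listed at 0 in 5 of 6 PEO23 libraries (highest 0.977), against 31.5, 52.9 and 90.0 at 8 h and 27.5, 44.3 and 456 at 24 h in PEO14. SFRP1, a secreted WNT antagonist, averaged 2.34 ± 1.73 rescaled TPM in PEO23 (SD, n = 6) and 51 ± 16.8 in PEO14 (SD, n = 4). CRABP1, a retinoic acid binder, and the homeobox factor HMX1 had log2 differences of -5.06 ± 0.33 and -3.93 ± 0.47 (10 libraries). BTBD6, the noncoding FLJ22447 and MAGED4B, whose reads the near-identical MAGED4 may share, completed the 12 lower genes, with log2 differences of -4.10 ± 0.34, -3.74 ± 0.29 and -3.60 ± 0.27.

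Interferon-stimulated genes, which encode RNA sensors and antiviral effectors and respond mostly through a shared promoter element, included many that rose in PEO23. Of 35 tested, 17 rose and none fell in the 10-library fit, and 15 rose and none fell in the 12-library fit, with 14 called in both. Of all genes, 5.29% were higher in the 10-library fit and 3.94% in the 12-library fit. The median log2 difference of the list was 1.22 (10 libraries) and 1.57 (12 libraries). Among the 10 libraries, the lines did not overlap for 18 members with PEO23 higher and for 1 with PEO23 lower, where 6.55% of all genes were higher and 5.09% lower without overlap. Without rescaling, 5 rose and 1 fell in the 10-library fit, and 7 rose in the 12-library fit.

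BST2 (tetherin), which holds budding virions at the cell surface, had 475, 249 and 444 rescaled TPM at 8 h and 689, 282 and 442 at 24 h in PEO23, against 8.26, 7.93 and 8.75 at 8 h and 19.2, 0 and 0 at 24 h in PEO14. The lines did not overlap, and the log2 difference was 4.93 ± 0.35 (10 libraries, limma adjusted p = 2.82e-06) and 6.34 ± 0.69 (12 libraries). Untreated PEO14 listed BST2 at 35.62, 31.48 and 21.68 deposited TPM. IFI27, an interferon-induced mitochondrial protein, averaged 174 ± 125 rescaled TPM in PEO23 (SD, n = 6) and 3.99 ± 1.12 in PEO14 (SD, n = 4). Its PEO23 values ran from 73.9 to 399, all above the highest PEO14 value of 5.42. IFIH1 (MDA5), a sensor of long double-stranded RNA, averaged 4.28 ± 1.45 rescaled TPM in PEO23 (SD, n = 6) and 0.163 ± 0.119 in PEO14 (SD, n = 4). OAS3, which makes the oligoadenylates that switch on RNase L, averaged 6.32 ± 1.92 rescaled TPM in PEO23 (SD, n = 6) and 0.686 ± 0.444 in PEO14 (SD, n = 4). The other members called in both fits were OAS1, OAS2, MX1, IFIT1, RSAD2, IFI44, IFI44L, HERC6, SAMD9 and XAF1. XAF1 was listed at 0 in the 4 PEO14 libraries, and the log2 differences of the rest lay between 1.25 and 2.09 (10 libraries).

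Members that were not called included STAT2 and IRF9, which carry the interferon signal to the nucleus. STAT2 averaged 11.1 ± 5.08 rescaled TPM in PEO23 (SD, n = 6) and 15.5 ± 3.20 in PEO14 (SD, n = 4), and IRF9 averaged 15.3 ± 3.70 rescaled TPM in PEO23 (SD, n = 6) and 11 ± 2.70 in PEO14 (SD, n = 4). IFITM1 and IFITM3, membrane proteins that block viral entry, had log2 differences of -0.35 ± 0.29 and -0.71 ± 0.28. ISG15, a ubiquitin-like modifier, averaged 171 ± 111 rescaled TPM in PEO23 (SD, n = 6) and 42.8 ± 15.6 in PEO14 (SD, n = 4), with a limma adjusted p of 0.0533 (10 libraries) and 0.0873 (12 libraries).

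Among 14 genes of MHC class I presentation, which carries peptides to the cell surface, 4 rose in the 10-library fit and 5 in the 12-library fit, against 5.29% and 3.94% of all genes, and none fell. PSMB8, a catalytic subunit of the immunoproteasome, had 19.4, 5.58 and 7.65 rescaled TPM at 8 h and 51, 15.6 and 11.9 at 24 h in PEO23, against 0.597, 0 and 0 at 8 h and 0.861, 0 and 0 at 24 h in PEO14. No PEO14 value reached 1, and the log2 difference was 3.26 ± 0.45 (10 libraries, limma adjusted p = 0.000614). HLA-F, a nonclassical chain, had 0.864 to 19.3 in PEO23 and was listed at 0 in PEO14, and TAP1, a subunit of the peptide transporter, had a log2 difference of 1.73 ± 0.43. HLA-B and HLA-C, named after their values were seen, and the light chain B2M had log2 differences of 0.71 ± 0.27, 0.78 ± 0.36 and 1.31 ± 0.50 and were called in neither fit. Reads of the HLA genes can be shared between paralogs, so these values are uncertain.

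Promoters from both lists are shown because many members were higher together. BST2, IFI27 and PSMB8 were among the members with the largest differences, and IFITM1, which was not called, was added after its values were seen. Each window runs from 250 bases before to 50 bases after the start, 5′ to 3′ on the gene's strand (RefSeq, GRCh38.p14). Capitals mark the core of the interferon-stimulated response element (GAAA, any 2 bases, GAAA) on either strand, and overlapping cores run together.
BST2 (chr19:17405581-17405880, minus strand): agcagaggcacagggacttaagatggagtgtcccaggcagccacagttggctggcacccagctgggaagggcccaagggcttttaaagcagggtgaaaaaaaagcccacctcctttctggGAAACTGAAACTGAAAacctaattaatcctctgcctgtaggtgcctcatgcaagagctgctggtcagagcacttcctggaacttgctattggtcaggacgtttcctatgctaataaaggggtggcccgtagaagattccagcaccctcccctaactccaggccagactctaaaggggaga
IFI27 (chr14:94110486-94110785, plus strand): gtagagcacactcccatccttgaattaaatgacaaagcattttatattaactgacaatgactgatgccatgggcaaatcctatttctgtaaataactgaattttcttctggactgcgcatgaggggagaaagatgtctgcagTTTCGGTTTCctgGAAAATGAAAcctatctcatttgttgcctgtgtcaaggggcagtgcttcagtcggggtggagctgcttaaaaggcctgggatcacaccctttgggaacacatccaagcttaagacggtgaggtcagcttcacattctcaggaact
PSMB8 (chr6:32843998-32844297, minus strand): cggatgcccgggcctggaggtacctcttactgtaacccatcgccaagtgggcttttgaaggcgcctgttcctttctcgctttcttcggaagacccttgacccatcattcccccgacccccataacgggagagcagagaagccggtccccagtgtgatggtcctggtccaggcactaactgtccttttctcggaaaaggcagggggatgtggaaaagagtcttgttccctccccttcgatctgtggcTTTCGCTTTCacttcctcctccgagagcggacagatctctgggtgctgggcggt
IFITM1 (chr11:313790-314089, plus strand): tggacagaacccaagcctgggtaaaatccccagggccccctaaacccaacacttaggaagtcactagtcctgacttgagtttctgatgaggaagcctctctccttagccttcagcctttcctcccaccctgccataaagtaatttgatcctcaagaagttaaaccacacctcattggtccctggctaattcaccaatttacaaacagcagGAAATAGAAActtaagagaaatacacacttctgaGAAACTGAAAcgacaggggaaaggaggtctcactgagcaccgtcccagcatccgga
The windows shown for BST2, IFI27 and IFITM1 hold 2 cores each, and that of PSMB8 holds 1. IFI27 and PSMB8 have 2 listed windows each, and the window shown was chosen because it holds a core. A gene counted as holding a core if any of its windows did. A core was held by 4.38% of 27305 genes with a window. Among interferon-stimulated genes with a window, it was held by 10 of the 13 called in both fits and by 10 of the 15 others that were tested. In the MHC class I list it was held by all 3 called in both fits and by 6 of the 9 others. A match describes these letters and does not show binding.

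**Figure D3:**
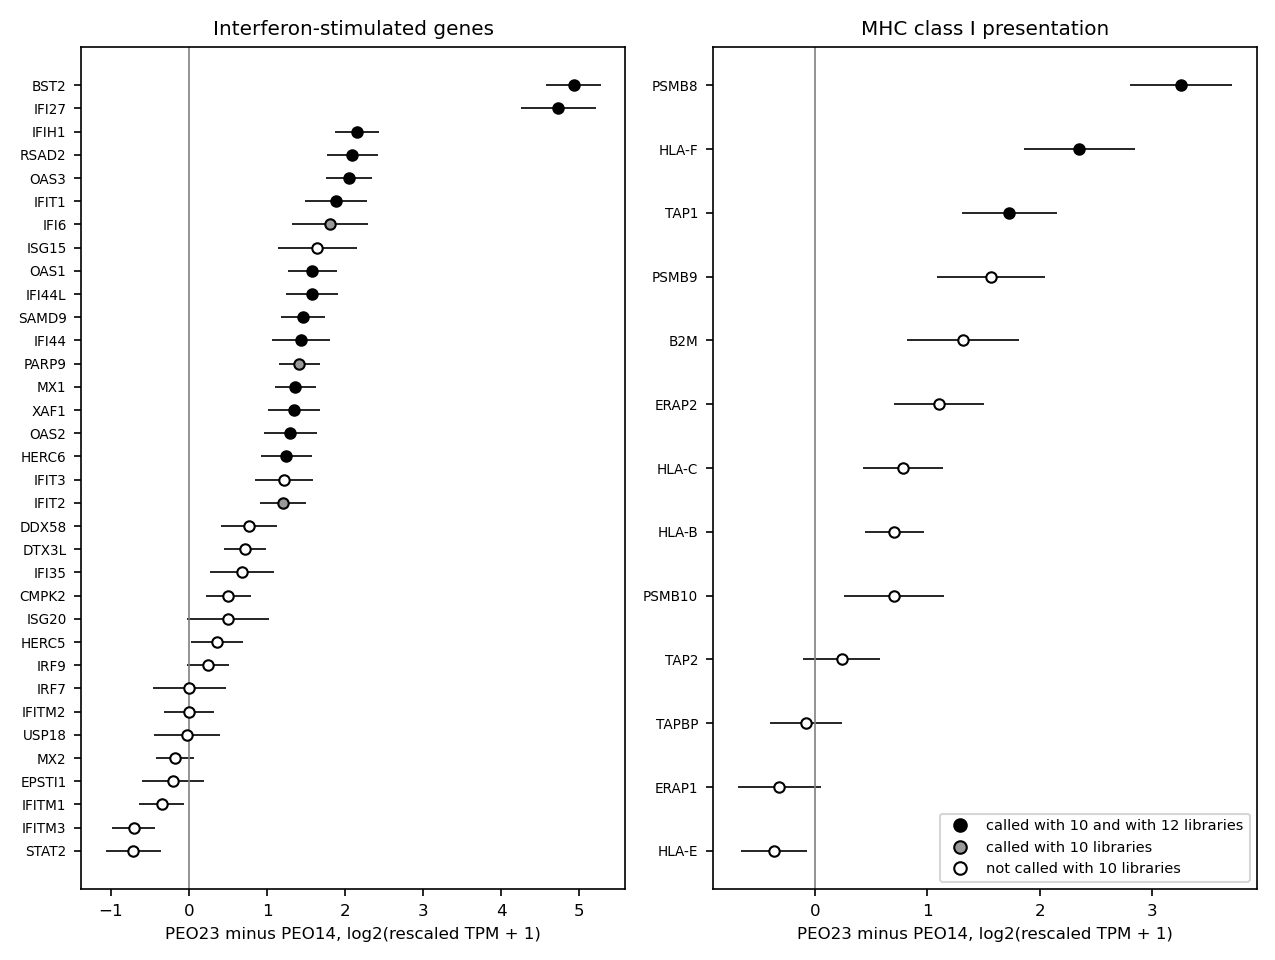
PEO23 minus PEO14 on the log2(rescaled TPM + 1) scale for tested interferon-stimulated genes (left) and MHC class I genes (right) in the 10-library fit, with bars of 1 SE and filled points for genes called in both fits. BST2 (4.93) and IFI27 (4.73) lie right of the other interferon-stimulated genes shown, which lie between -0.71 and 2.15.

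Genes of epithelial junctions and keratins moved in both directions, with 4 of 26 higher and 4 lower in PEO23 in the 10-library fit and 3 higher and none lower in the 12-library fit. Of all genes, 5.29% were higher and 6.32% lower in the 10-library fit, and 3.94% and 1.07% in the 12-library fit. With same-passage cultures as a block, 2 members were lower in the 10-library fit. CLDN3, the desmosomal plakophilin PKP3 and the tight-junction scaffold TJP3 rose in both fits. PKP3 averaged 28.9 ± 11.6 rescaled TPM in PEO23 (SD, n = 6) and 0.0478 ± 0.0956 in PEO14 (SD, n = 4), with a log2 difference of 4.74 ± 0.34. EPCAM, the placental cadherin CDH3 and the keratins KRT8 and KRT18 fell in the 10-library fit. KRT18, a keratin of simple epithelia named after its values were seen, averaged 1174 ± 199 rescaled TPM in PEO23 (SD, n = 6) and 3113 ± 929 in PEO14 (SD, n = 4), with a limma adjusted p of 0.0177 (10 libraries) and 0.0698 (12 libraries). CDH1 (E-cadherin), the main cadherin of epithelia, averaged 34.6 ± 15.5 rescaled TPM in PEO23 (SD, n = 6) and 33.1 ± 13.4 in PEO14 (SD, n = 4) and was not called.

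Mesenchymal genes were more often lower in PEO23. Of 22 tested, 12 fell and 1 rose in the 10-library fit (median log2 difference -1.24), and 7 fell and 2 rose in the 12-library fit (median -0.88). Of all genes, 6.32% fell in the 10-library fit and 1.07% in the 12-library fit. With same-passage cultures as a block, 4 fell and 1 rose in the 12-library fit, and without rescaling 3 fell and 1 rose, while 12 fell in the 10-library fit under either alternative. CALD1 (caldesmon), which binds actin, averaged 24.2 ± 7.07 rescaled TPM in PEO23 (SD, n = 6) and 138 ± 75.5 in PEO14 (SD, n = 4), with a log2 difference of -2.38 ± 0.37. TAGLN (transgelin), another actin-binding protein, CCDC80, a matrix protein, and FN1 (fibronectin) had log2 differences of -2.38 ± 0.33, -2.20 ± 0.33 and -1.99 ± 0.30, and all fell in both fits. SNAI1, a repressor of E-cadherin, averaged 2.30 ± 1.02 rescaled TPM in PEO23 (SD, n = 6) and 9.14 ± 3.98 in PEO14 (SD, n = 4). ZEB1, another such repressor, was listed at 0 in PEO23 and at no more than 0.221 in PEO14 and was not tested. S100A4, a calcium-binding protein of motile cells, rose in both fits and averaged 1598 ± 679.9 rescaled TPM in PEO23 (SD, n = 6) and 232 ± 117 in PEO14 (SD, n = 4). The list holds COL1A1 and COL1A2, which fell in the 10-library fit and are fibroblast markers as well. Of the 3 fibroblast markers tested, these were the 2 that fell in that fit. The third, LUM (lumican), a matrix proteoglycan, had 0.681 to 5.284 rescaled TPM in PEO23 and 3.285 to 7.171 in the 4 PEO14 libraries. The part of the fibroblast markers, whose sums and members at 0 are given above, was not tested. In bulk RNA, fewer cells of a state and less RNA per cell cannot be told apart.

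Genes of the Müllerian and serous lineage included 7 of 13 that rose in the 10-library fit, 6 that rose in the 12-library fit and none that fell, where 5.29% and 3.94% of all genes rose. Without rescaling, 1 fell in the 10-library fit. EMX2, a homeobox factor of the developing reproductive tract, had 24.9, 33.8 and 48.5 rescaled TPM as its lowest, median and highest value in PEO23, against 1.29, 2.77, 0.918 and 1.19 in the 4 PEO14 libraries and 0 and 4.12 in the sparse ones. The lines did not overlap, and the log2 difference was 3.86 ± 0.30 (10 libraries, limma adjusted p = 5.3e-06). Untreated PEO14 listed EMX2 at 5.23, 11.67 and 11.27 deposited TPM. MSLN (mesothelin) and FOLR1 (folate receptor alpha) are surface proteins used as antibody targets in this cancer. MSLN averaged 11.9 ± 3.15 rescaled TPM in PEO23 (SD, n = 6) and 0.633 ± 0.382 in PEO14 (SD, n = 4), and FOLR1 averaged 14.2 ± 3.95 rescaled TPM in PEO23 (SD, n = 6) and 1.26 ± 0.613 in PEO14 (SD, n = 4). MUC16, the mucin that carries the CA125 epitope, averaged 3.29 ± 1.34 rescaled TPM in PEO23 (SD, n = 6) and 0.0608 ± 0.0407 in PEO14 (SD, n = 4), and untreated PEO14 listed it at 7.89, 7.71 and 4.99 deposited TPM. PAX8, a transcription factor of this epithelium, averaged 30.6 ± 9.98 rescaled TPM in PEO23 (SD, n = 6) and 28.5 ± 12.8 in PEO14 (SD, n = 4) and was not called. The promoter of EMX2, the member with the largest difference, is shown beside those of the interferon genes. It holds 21 CpG dinucleotides and no interferon element core, as did all 12 Müllerian genes with a window.
EMX2 (chr10:117542496-117542795, plus strand): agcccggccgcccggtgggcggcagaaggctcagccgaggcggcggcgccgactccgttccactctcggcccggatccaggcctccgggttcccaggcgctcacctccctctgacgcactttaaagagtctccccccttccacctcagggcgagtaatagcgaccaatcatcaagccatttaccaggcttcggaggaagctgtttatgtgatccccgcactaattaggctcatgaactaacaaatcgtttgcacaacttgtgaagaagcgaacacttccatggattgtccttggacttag

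**Figure D4:**
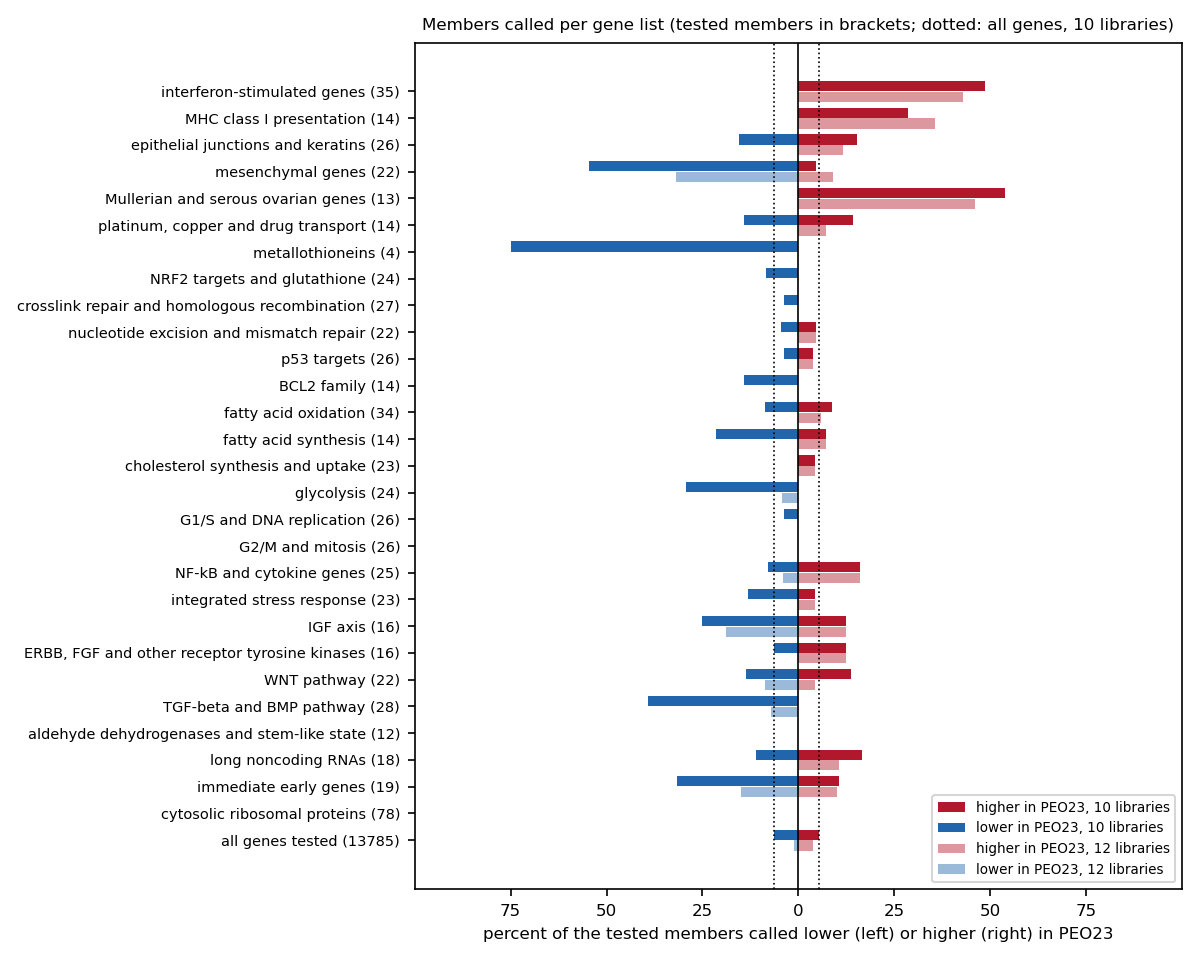
Percent of the tested members of each list (number in brackets) called higher (right, red) or lower (left, blue) in PEO23, with the 10-library fit in dark and the 12-library fit in light bars and dotted lines at the shares of all genes in the 10-library fit (5.29% higher, 6.32% lower). The bars to the right are longest for the Müllerian and interferon-stimulated lists, and the bars to the left are long in both fits for the mesenchymal list, while those of the 4 metallothioneins appear in the 10-library fit alone.

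Among 14 genes of platinum, copper and drug transport, 2 rose and 2 fell in the 10-library fit, and 1 rose and none fell in the 12-library fit. Of all genes, 5.29% rose and 6.32% fell in the 10-library fit, and 3.94% and 1.07% in the 12-library fit. The copper chaperone COX17 rose in the 10-library fit, with a log2 difference of 1.44 ± 0.33. The exporter ABCC4 and the organic cation transporter SLC22A3 fell in that fit, with log2 differences of -1.14 ± 0.30 and -1.73 ± 0.26. These 3 were named after their values were seen. The multidrug exporter ABCC3 rose in both fits at low levels, with 0.348 to 4.41 rescaled TPM in PEO23 and at most 0.180 in PEO14. The copper importer SLC31A1 and the copper exporters ATP7A and ATP7B, all proposed routes of platinum, had log2 differences of 0.26 ± 0.27, 0.08 ± 0.27 and -0.05 ± 0.42 and were not called. ABCB1 (P-glycoprotein) was listed at 0 in all 12 libraries. MT2A, a metal-binding metallothionein, had 8.02, 6.63 and 5.01 at 8 h and 0, 4.41 and 0 at 24 h in PEO23, against 40.9, 37 and 48.5 at 8 h and 28.4, 0 and 35.8 at 24 h in PEO14. PEO23 lay below all PEO14 libraries but 1 sparse one, and the log2 difference was -3.15 ± 0.48 in the 10-library fit (limma adjusted p = 0.00109) and -2.54 ± 0.78 in the 12-library fit (adjusted p = 0.0781). Of 4 metallothioneins tested, 3 fell in the 10-library fit and none were called in the 12-library fit. GSTP1, a glutathione transferase, averaged 513 ± 47.5 rescaled TPM in PEO23 (SD, n = 6) and 642 ± 59.1 in PEO14 (SD, n = 4) and was not called.

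Of 27 genes of crosslink repair and homologous recombination, 1 (FANCE) fell in the 10-library fit, where 6.32% of all genes fell, and none were called in the 12-library fit. BRCA1 and BRCA2, which act in that recombination, had log2 differences of -0.63 ± 0.31 and 0.05 ± 0.32. Among 22 genes of nucleotide excision and mismatch repair, 1 rose and 1 fell in the 10-library fit, and 1 rose in the 12-library fit. Of all genes, 5.29% rose and 6.32% fell with 10 libraries, and 3.94% rose with 12. RPA3, the small subunit of the single-strand DNA binder RPA, rose in both fits. It had 46.6, 49.6 and 79.7 rescaled TPM as its lowest, median and highest value in PEO23, against 13.1, 7.43, 3.22 and 20.4 in the 4 PEO14 libraries and 43.5 and 29 in the sparse ones. ERCC1, part of a nuclease that excises the adduct, and XPA, which checks the damage, had log2 differences of -0.70 ± 0.37 and 0.68 ± 0.27 and were not called.

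Of 26 p53 targets, 1 rose and 1 fell in the 10-library fit, and 1 rose in the 12-library fit. Of all genes, 5.29% rose and 6.32% fell with 10 libraries, and 3.94% rose with 12. FAS, a death receptor, rose in both fits. It averaged 18.5 ± 8.87 rescaled TPM in PEO23 (SD, n = 6) and 4.08 ± 1.20 in PEO14 (SD, n = 4). GADD45A fell in the 10-library fit. CDKN1A (p21), which halts the cell cycle, and MDM2, which degrades p53, had log2 differences of 0.86 ± 0.30 and 0.30 ± 0.25 and were not called. Of 14 genes of the BCL2 family, 2 fell in the 10-library fit, where 6.32% of all genes fell, and none were called in the 12-library fit. They were BAK1, which promotes cell death and was named after its values were seen, and MCL1, which restrains it, with log2 differences of -1.04 ± 0.26 and -0.80 ± 0.23. Without rescaling, none of the family was called, and BCL2 and BCL2L1 were called in neither. Of 26 genes of G2/M and mitosis, none were called in either fit, where 5.29% of all genes rose and 6.32% fell with 10 libraries.

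In fatty acid oxidation, 3 of 34 genes rose and 3 fell in the 10-library fit, and 2 rose in the 12-library fit, shares near those of all genes (5.29% higher and 6.32% lower with 10 libraries, 3.94% higher with 12). CPT1A, which commits long-chain fatty acids to mitochondrial import, had 9.96, 11.7 and 4.29 rescaled TPM at 8 h and 5.84, 8.59 and 5.96 at 24 h in PEO23, against 22.3, 26.5 and 25.8 at 8 h and 13.7, 5.66 and 8.49 at 24 h in PEO14. PEO23 lay below PEO14 among the 10 libraries, and the sparse libraries lay within the PEO23 range. The log2 difference was -1.44 ± 0.28 in the 10-library fit (limma adjusted p = 0.00563) and -0.93 ± 0.40 in the 12-library fit (adjusted p = 0.214). SLC25A20, the carrier of acylcarnitines into mitochondria, was listed at 0 in all 6 PEO14 libraries and had 1.41 to 5.94 in PEO23. In glycolysis, 7 of 24 genes fell in the 10-library fit and 1 in the 12-library fit, where 6.32% and 1.07% of all genes fell. The 1 was the lactate carrier SLC16A1, which averaged 22.3 ± 4.96 rescaled TPM in PEO23 (SD, n = 6) and 70.5 ± 8.43 in PEO14 (SD, n = 4). The glucose importer SLC2A1 averaged 31 ± 6.13 rescaled TPM in PEO23 (SD, n = 6) and 95.6 ± 39.9 in PEO14 (SD, n = 4) and was called in the 10-library fit only. Of 23 genes of cholesterol synthesis and uptake, 1 rose and none fell in each fit. It was TM7SF2, a sterol reductase, with a log2 difference of 2.03 ± 0.25.

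Among 25 cytokine and NF-kB genes, 4 rose and 2 fell in the 10-library fit, where 5.29% of all genes rose and 6.32% fell. The rises numbered 2 with same-passage cultures as a block and 2 without rescaling. CXCL8 (interleukin 8), which attracts neutrophils, had 63.8, 77.5 and 58 rescaled TPM at 8 h and 56.5, 18 and 18.2 at 24 h in PEO23, against 3.57, 4.25 and 4.49 at 8 h and 5.15, 0 and 0 at 24 h in PEO14. The lines did not overlap (log2 difference 3.10 ± 0.40). CXCL1, a related chemokine, averaged 45 ± 30.9 rescaled TPM in PEO23 (SD, n = 6) and 119 ± 35.7 in PEO14 (SD, n = 4). It fell in both fits, but its 12-library call was lost with same-passage cultures as a block and without rescaling. CXCL10, an interferon-inducible chemokine, rose in both fits, but in neither with same-passage cultures as a block, with at most 6.38 in PEO23 and 0 in all 6 PEO14 libraries.

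Of 16 IGF axis genes tested, 2 rose and 4 fell in the 10-library fit and 2 and 3 in the 12-library fit. Of all genes, 5.29% rose and 6.32% fell with 10 libraries, and 3.94% and 1.07% with 12. The growth factors IGF2 and IGF1 rose and the binding proteins IGFBP2, IGFBP4 and IGFBP7 fell in both fits. IRS1 fell in the 10-library fit only. With same-passage cultures as a block, 2 rather than 3 fell in the 12-library fit. IGF2 averaged 486 ± 145 rescaled TPM in PEO23 (SD, n = 6) and 113 ± 20.5 in PEO14 (SD, n = 4), while untreated PEO14 listed it at 1696, 2582 and 1322 deposited TPM. Of 28 genes of the TGF-beta and BMP pathway, 11 fell in the 10-library fit and 2 in the 12-library fit, where 6.32% and 1.07% of all genes fell, and none rose. The 11 became 7 without rescaling and 8 with same-passage cultures as a block. ID3, a helix-loop-helix inhibitor that BMP signals induce, averaged 23.6 ± 9.90 rescaled TPM in PEO23 (SD, n = 6) and 112 ± 8.63 in PEO14 (SD, n = 4) and fell in both fits, as did the BMP antagonist NOG (log2 difference -1.88 ± 0.34). The ligand TGFB2 and the receptor TGFBR2, named after their values were seen, fell in the 10-library fit only, with log2 differences of -1.90 ± 0.29 and -1.29 ± 0.29.

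Of 22 WNT pathway genes tested, 3 rose and 3 fell in the 10-library fit. In the 12-library fit 1 of 23 rose and 2 fell. Of all genes, 5.29% rose and 6.32% fell with 10 libraries, and 3.94% and 1.07% with 12. The ligand WNT7A rose and the receptor FZD7 fell in both fits, with log2 differences of 2.01 ± 0.32 and -2.89 ± 0.27. Of 16 receptor tyrosine kinases tested, 2 rose and 1 fell in the 10-library fit, and 2 rose in the 12-library fit. The receptor ERBB3, which pairs with ERBB2, rose in both fits and averaged 11.8 ± 2.28 rescaled TPM in PEO23 (SD, n = 6) and 2.23 ± 0.616 in PEO14 (SD, n = 4). Of 19 immediate early genes tested, 2 rose and 6 fell in the 10-library fit. Of 20 in the 12-library fit, 2 rose and 3 fell. The transcription factors FOS and EGR1 rose in both fits. IER3 and the phosphatases DUSP1 and DUSP4, which act on MAP kinases, fell in both. Members that fell in the 10-library fit only included other transcription factors. Without rescaling, none rose, while 4 fell in the 10-library fit and 3 in the 12-library fit. Of 23 genes of the integrated stress response, 1 rose and 3 fell in the 10-library fit, and 1 rose in the 12-library fit. NUPR1, a stress-induced chromatin protein, was the 1 that rose in both. It had 5.45 to 58.9 rescaled TPM in PEO23 and at most 1.06 in PEO14. Of 18 long noncoding RNAs tested, 3 rose and 2 fell in the 10-library fit, and 2 of 19 rose in the 12-library fit. UCA1 and MALAT1 rose in both fits, with log2 differences of 2.41 ± 0.28 and 2.10 ± 0.40. MALAT1 had 33.2 to 91.6 in the 4 treated PEO14 libraries, while untreated PEO14 listed it at 1898, 2330.3 and 1879.9 deposited TPM. None of 78 ribosomal protein genes was called in either fit. Without rescaling, 1 of them rose and 11 fell in the 10-library fit, where 257 of all 13785 genes rose and 663 fell. In the 12-library fit without rescaling, 1 fell.

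Without rescaling, OAS1, IFIT1, TAP1, FAS, ERBB3, WNT7A, FOS and EGR1 lost their calls in both fits. In the 12-library fit alone, TJP3, CALD1, ABCC3, RPA3, TM7SF2, CXCL10, IGF2, UCA1 and MALAT1 lost theirs. RPA3 also lost its 12-library call with same-passage cultures as a block.

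At 8 h, where each line has 3 libraries over 12000 genes, 600 genes (4.35%) were higher and 745 (5.4%) lower in PEO23 in the 10-library fit, and 0.76% were higher and 53 (0.38%) lower in the 12-library fit. At 24 h, 98 (0.711%) were higher and 94 (0.682%) lower in the 10-library fit, which rests on 1 PEO14 library, and 329 (2.36%) and 38 (0.272%) in the 12-library fit. In the 10-library fit BST2 had a log2 difference of 5.25 at 8 h and 4.27 at 24 h, S100A9 had 7.30 and 6.61, CLDN3 had 5.46 and 5.92, and VIM had -4.43 and -4.13. Between 24 h and 8 h, limma called 0 genes within PEO23 in both fits (209 and 716 at an unadjusted p under 0.05 with 12 and 10 libraries). Within PEO14 it also called 0 (2797 and 2086 unadjusted). The 24 h minus 8 h change differed between the lines for 0 genes (1145 and 1357 unadjusted). B2M, with log2 differences between the lines of 2.16 at 8 h and -0.37 at 24 h, was therefore not shown to differ with time. With PEO14 24 h library 1 left out, so that PEO14 at 24 h held only the sparse libraries, 3682 genes were called between 24 h and 8 h in PEO14.

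PEO4 against PEO1 and PEA2 against PEA1, the other intra-patient pairs, were set beside PEO23 against PEO14 in 1 fit of all 36 treated libraries and in 1 of the 29 with at least 12000 genes. The pairs share no library. The 24 genes were chosen for their difference between PEO23 and PEO14, so their counts describe the choice. With 36 libraries, 9 of the 12 higher genes had a larger difference in PEO23 minus PEO14 than in PEO4 minus PEO1, and 9 than in PEA2 minus PEA1, where 12.9% and 6.4% of all genes did. Of the 12 lower genes, 12 and 9 had a more negative difference, where 5.04% and 4.25% of all genes did. With 29 libraries, 8 of the 12 higher genes had a larger and 2 a smaller difference than in PEO4 minus PEO1 (9.8% and 11.3% of all genes), and 9 a larger one than in PEA2 minus PEA1 (12.8%). In PEO4 minus PEO1 itself, 7 of the 12 higher genes were called higher and 1 lower with 36 libraries (9.91% and 11.2% of all genes). In PEA2 minus PEA1, 7 of them were called higher (7% of all genes), while of the 12 lower genes 2 were called higher and 4 lower (6.08% of all genes were lower).

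Individual genes differed between the pairs in different ways. S100A9 had a median of 58.8 rescaled TPM in PEO4 and 966 in PEO1, and the difference of PEO23 minus PEO14 exceeded that of PEO4 minus PEO1 by 11.61 ± 0.98 on the log2 scale (36 libraries, limma adjusted p = 1.4e-10). IFI27 was higher in PEO23, PEO4 and PEA2 than in their partners, with log2 differences of 5.74 ± 0.76, 7.86 ± 0.76 and 4.68 ± 0.76 (36 libraries). BST2 had a log2 difference of 5.51 ± 0.83 in PEO4 minus PEO1, and the difference between the pairs was 0.90 ± 1.17 with 36 libraries (limma adjusted p = 0.6) and -2.12 ± 0.48 with 29 (adjusted p = 0.00187), so its sign turned. EMC10 had a median of 30.6 in PEO4 and was at a median of 0 in PEO1. VIM was lower in PEA2 than in PEA1 as well, by a log2 difference of -4.68 ± 0.49.

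**Figure D5:**
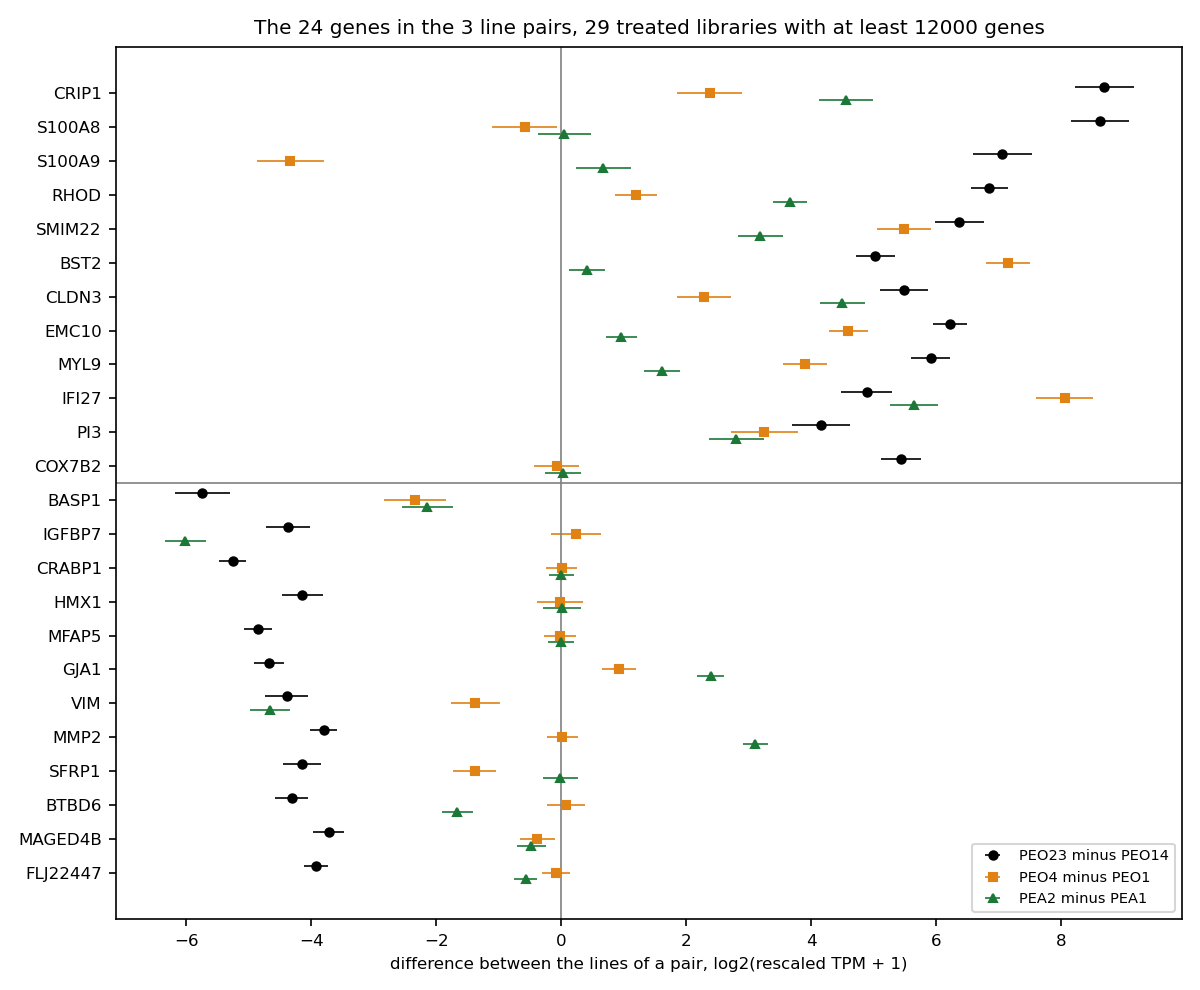
Difference between the lines of each pair on the log2(rescaled TPM + 1) scale for the 24 genes, with bars of 1 SE, in the 29 treated libraries with at least 12000 genes, where 9.65% of all genes were called higher in PEO23 than in PEO14. PEO23 minus PEO14 (black) lies furthest from 0 for S100A8, S100A9, RHOD, COX7B2, CRABP1, HMX1 and MFAP5 among others, while PEO4 minus PEO1 (orange) lies further right for BST2 and IFI27.

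Called genes were placed on chromosomes by symbol, with 5.3% of 13463 placed genes higher and 6.34% lower in the 10-library fit. On chromosome 9, 10.4% of 547 tested genes were higher and 3.29% lower, and on chromosome 11 the shares were 9.06% and 4.2%. On chromosome 14, 2.03% were higher and 11% lower, and on chromosome 21 the shares were 3.62% and 13%. The lower shares on chromosomes 1, 2 and 10 were 10.1%, 10.4% and 10.4%. The next tested gene along the chromosome was called in the same direction for 113 of 714 higher genes (15.8%) and for 138 of 852 lower genes (16.2%). Runs of neighbours called together included FLG, S100A9, S100A8 and S100A7 on chromosome 1 and KCNS1, PI3, SLPI and SDC4 on chromosome 20, which were higher, and RBMS3, TGFBR2, STT3B, OSBPL10 and ZNF860 on chromosome 3, which were lower. The chromosomes and runs named were chosen after their values were seen.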

How the data were processed

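RNA of 54 libraries was measured by RNA-seq. Per the labels' protocols, 200 ng of total RNA went through a stranded total RNA kit and was read as 75-base pairs. The submitters' processing notes name bcl2fastq 2.18 and the build hg19, with no aligner or counter given in the sources used here. The authors deposited 1 table of TPM for 25435 genes. It holds 28 date-like symbols, and no 2 libraries hold identical values. Read depth is unknown, so no counting interval is given, and the number of libraries limits the precision. Dose and groups are those of the labels.

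TPM were rescaled by median ratios over genes above 0 in every library of a fit (4301 genes with 12 libraries, 11202 with 10). Genes with at least 1 TPM in at least 3 libraries were tested on log2(rescaled TPM + 1) with limma 3.58.1 (trended empirical Bayes, R 4.3.3, time as a term), with Benjamini-Hochberg adjustment and a threshold of 0.05, after a test on simulated data. Tables and figures used Python 3.11.15, pandas 2.3.3 and matplotlib 3.10.9. Deviations of same-numbered libraries of a line at 8 h and 24 h had correlations of 0.0403 to 0.483 (median 0.322). Those of the 2 lines at 1 time had -0.0296 to 0.281 (median 0.075), so the ranges overlap. With 6 such pairs each, these values cannot decide whether the numbers pair the lines. The labels do not say so, and the numbers were not used to pair the lines in the main fits.

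The named genes were the 12 higher and 12 lower with the largest differences among genes called in both fits, with a mean of at least 10 rescaled TPM and no overlap, up to 4 called members per list, and a fixed set of platinum, repair and lineage genes. Members outside this rule were named after their values were seen. The comparison and the 33 gene lists were chosen with earlier results of these data known. The promoter of MSLN is not used here, and some genes are not reported here. Alternatives covered the libraries, pseudocount, filter, rescaling, array weights, blocks and leaving out each library.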

Additional observations from a re-analysis of the deposited data

Results flagged for a closer look

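In groups of 6 libraries, 10 of 54 sets of values held a library whose gap to the nearest other exceeded Dixon's 95% limit. The chance rate of about 1 in 20 holds for continuous, normally spread values. It cannot be set against this count, since a gene at 0 in all libraries of a line but 1 always exceeds the limit. The sparse libraries, known beforehand, also hold some of these sets. Ribosomal protein mRNAs took 14.44% of the TPM sum in PEO23 24 h replicate 3, against 17.34% to 19.06% in the other PEO23 libraries. They took 7.91% in PEO14 24 h replicate 3, a sparse library, against 18.65% to 23.78% in the other PEO14 libraries. On the log2(rescaled TPM + 1) scale, 4 genes that were at or near 0 in PEO23 stood out in 1 library each. They were BASP1 at 0.98 in 8 h replicate 3, IGFBP7 at 1.00 in 24 h replicate 2, GJA1 at 0.58 in 8 h replicate 2 and MMP2 at 0.47 in 8 h replicate 1. In PEO14, CRABP1 at 0 and MFAP5 at 2.28 stood out in 24 h replicate 3, and BTBD6 at 1.44 in 24 h replicate 2, all in sparse libraries. MAGED4B at 5.17 stood out as the highest value, in PEO14 8 h replicate 3.

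The line difference of some genes differed between the pairs by limma's test of that difference over 36 libraries. PEO23 minus PEO14 exceeded PEO4 minus PEO1 by 11.61 for S100A9, 9.03 for S100A8, 7.07 for CRIP1, 6.05 for RHOD and 5.33 for COX7B2 on the log2 scale. Against PEA2 minus PEA1 the differences were 8.46 for S100A8, 6.55 for S100A9 and 5.86 for BST2, and -7.33 for MMP2 and -6.93 for GJA1. These genes were chosen for the size of their difference between PEO23 and PEO14.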

How the results depend on the processing

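The 24 genes with the largest differences kept their direction and call in 600 of 600 combinations of gene and alternative. They were chosen as the largest differences among genes called in both fits, so this count partly describes the choice. Over all 95 named genes that were tested, 2243 of 2366 combinations did so, 22 gained a call, none reversed and the rest lost theirs. The count of calls moved more, and the cause was not tested. The pooled comparison called 698 genes, against 1600 with the libraries of at least 12000 genes, 433 with a pseudocount of 0.1, 293 without rescaling, 2679 with array weights (0.0994 and 0.0792 for the sparse libraries, at least 0.835 for the others) and 1226 with 36 libraries in 1 fit. Among alternatives chosen after seeing the data, it called 426 with RMRP and RPPH1 removed, 1773 with 8 h libraries over 12000 genes only, and 1140 with those over 12000 genes and same-passage cultures as a block. At 8 h the 159 calls became 1345 with libraries over 12000 genes, 88 with a pseudocount of 0.1 and 1.0e+02 (32 higher and 72 lower) without rescaling. At 24 h the 367 calls became 192 and, without rescaling, 122. Between 24 h and 8 h, PEO23 had 0 calls and 1 without a filter, and PEO14 had 0 calls, 1 with a pseudocount of 0.1, 25 without a filter and 45 without rescaling. The difference from PEO4 minus PEO1 fell to 1437 genes, against 2928, without rescaling, and that from PEA2 minus PEA1 rose to 4424, against 1733, with libraries over 12000 genes. Of calls in the pooled 12-library comparison 78.7% were higher, against 64.5% without rescaling, 72.1% without RMRP and RPPH1 and 45.6% in the 10-library fit.

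With 1 library left out, the calls ranged from 411 (without PEO14 8 h replicate 3) to 1218 (without PEO14 24 h replicate 1) for the pooled comparison, 884 (without PEO14 8 h replicate 1, and 937 without replicate 2) to 1765 for its 10-library fit, 21 to 447 at 8 h, 87 to 4080 at 24 h, 0 to 3 between times in PEO23, 0 to 3682 between times in PEO14 and 0 to 1794 for the difference of these changes. They ranged from 2080 to 5925 (without PEO1 8 h replicate 3) for the difference from PEO4 minus PEO1 and from 1499 to 2034 for that from PEA2 minus PEA1. The pooled count also moved by over 1.5 times without PEO23 8 h replicate 2 (456), PEO23 24 h replicates 1 and 2 (431 and 453) and PEO14 8 h replicates 1 and 2 (422 and 439). The labels do not say whether the replicate numbers pair the lines. With the replicate number as a block, the pooled comparison called 689 genes, the 8 h one 132, the 24 h one 252, the 3 comparisons of time 0 each, and the differences from the other pairs 3421 and 1791, and with same-passage cultures as a block the pooled one called 492.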
